A study of Mus musculus with 12 samples.

Results

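Mast cells and basophils store proteases in their granules, and the array values of 8 genes for such proteases are described here across 2 Tet2 genotypes and 2 culture passages. The members were chosen by symbol, with earlier results of these data known: Cpa3, Cma1, Tpsab1, Tpsb2, Mcpt4, Mcpt8, Prss34 and Gzmb. Each of the 8 was named by a single row of the 41345 in the table, and all 8 were among the 16860 genes tested. All 8 lay above the filter on low values (log2 4.70) in each of the 12 arrays, with a lowest value of 5.48, so none passed through 1 group alone.

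The cells were mouse bone marrow cells enriched for Kit, from Tet2fl/fl;CreER animals, in which a Cre recombinase activated by tamoxifen can delete the floxed Tet2 alleles. Cells of all 4 groups expressed AML1-ETO, the fusion protein of a myeloid leukaemia, and GFP from a retrovirus (MigR1-AE-IRES-GFP), had been replated in methylcellulose and grew in suspension with SCF, IL-3 and IL-6. Tet2-/- cells had been given 4-hydroxytamoxifen (4-OHT) at 200 nM for 2 passages (4 days), and Tet2fl/fl cells had been given ethanol. The Tet2 enzyme oxidises the methyl group of methylated cytosines. The groups were Tet2-/- p2 and Tet2fl/fl p2 (passage 2), and Tet2-/- p10 and Tet2fl/fl p10 (passage 10). Each group had 3 arrays, numbered 1 to 3 as replicates. Cells with GFP and CD16/32 and without CD11b or Gr1 were sorted for RNA, a gate that asks for no marker specific to mast cells or basophils. The labels give Tet2 loss and 4-OHT to the same groups, so effects of 4-OHT, of Cre and of Tet2 loss cannot be told apart. The labels leave out whether replicates are separate animals or cultures. The p-values thus cover the spread of these arrays, which may be technical.

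Serine proteases and carboxypeptidases make up much of the protein in mast cell granules, where they are held on the proteoglycan serglycin. Chymases typically cut after aromatic residues, tryptases after basic ones, granzyme B after aspartate, and carboxypeptidase A trims the C-terminal end. A single member can differ from its class, and the specificity of each was not examined here. Connective tissue mast cells of the mouse are known for Mcpt4, Cma1, Cpa3 and the tryptases Tpsb2 and Tpsab1. Mouse basophils are known for Mcpt8 and Prss34. The genes sit in gene clusters of related proteases. In RefSeq (GRCm38.p6), Cma1, Mcpt4, Mcpt8 and Gzmb lie on chromosome 14 within 320.9 kb (55941451 to 56262334), a stretch of 26 annotated genes of which 15 code for proteins. Prss34, Tpsab1 and Tpsb2 lie on chromosome 17 within 69.7 kb (25298394 to 25368096), and Cpa3 lies on chromosome 3 (20215616 to 20242209). RefSeq lists Tpsab1 as a transcribed pseudogene in this assembly, which is that of C57BL/6J mice, and the other 7 as protein coding.

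RefSeq promoter windows (GRCm38.p6) were given for 6 of the 8 members, Tpsab1 and Tpsb2 being without one. The sequence GATAA, read by GATA factors such as the mast cell factor Gata2, was found on either strand in the 250 bases before the start in 4 of the 6, against 22.6% of all 32851 windows. The sequence TGTGGT, the site of the RUNX factors whose DNA-binding part AML1-ETO keeps, was found in 4 of the 6, against 14% of windows. CANNTG, the E-box, was found in 5 of the 6 against 66.2%, and TATAAA in 2 against 12.4%. The 200 bases before the start are printed for the 4 members with GATAA, because these include Mcpt4 and Cma1, which had lower means in Tet2-/- cells, and Cpa3 and Prss34, which did not. Capitals mark GATAA and TGTGGT, or TTATC and ACCACA where the motif lies on the other strand.
Mcpt4 (chr14:56062311-56062510, minus strand): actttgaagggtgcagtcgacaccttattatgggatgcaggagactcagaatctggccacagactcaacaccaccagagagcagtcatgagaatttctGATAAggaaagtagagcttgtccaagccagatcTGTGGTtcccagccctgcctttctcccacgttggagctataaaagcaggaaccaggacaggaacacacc
Cma1 (chr14:55944676-55944875, minus strand): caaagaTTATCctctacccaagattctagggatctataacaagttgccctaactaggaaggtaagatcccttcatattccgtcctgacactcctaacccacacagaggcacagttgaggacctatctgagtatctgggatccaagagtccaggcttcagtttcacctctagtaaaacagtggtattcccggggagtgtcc
Cpa3 (chr3:20242182-20242381, minus strand): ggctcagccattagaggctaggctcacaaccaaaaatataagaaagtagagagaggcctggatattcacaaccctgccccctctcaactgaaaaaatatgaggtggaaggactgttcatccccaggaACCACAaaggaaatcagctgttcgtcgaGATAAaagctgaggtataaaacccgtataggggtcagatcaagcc
Prss34 (chr17:25298194-25298393, plus strand): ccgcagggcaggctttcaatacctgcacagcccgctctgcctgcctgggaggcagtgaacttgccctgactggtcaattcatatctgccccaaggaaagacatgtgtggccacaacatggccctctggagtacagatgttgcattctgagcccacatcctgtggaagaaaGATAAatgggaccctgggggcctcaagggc
GATAA begins 102 bases before the start in Mcpt4, 194 in Cma1, 45 in Cpa3 and 30 in Prss34. The start used for the Cpa3 window lies inside the gene span given above. Its printed bases from 20242182 to 20242209 are thus within that span. A match of letters describes the window and is not a measured site.

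The labels and the arrays were checked first. The median of an array was log2 5.57 to 5.68, and Pearson's r between 2 arrays of the same group was 0.984 to 0.991 over all rows. The signal of Tet2 did not pass for genotype (-0.03 ± 0.09 at passage 2 and -0.05 ± 0.09 at passage 10, SE, adjusted p = 0.952 and 0.921 in limma's test), and 1 value for the whole gene does not check the deletion. Arrays with the same replicate number deviated together from their group means, so the fit with the replicate number as a block is given wherever it changes a call. Values are array signals on the log2 scale with n = 3 arrays per group throughout, values after ± are standard errors (SE) unless given as SD, and adjusted p-values are from limma with Benjamini-Hochberg adjustment over all 16860 genes.

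**Figure D1:**
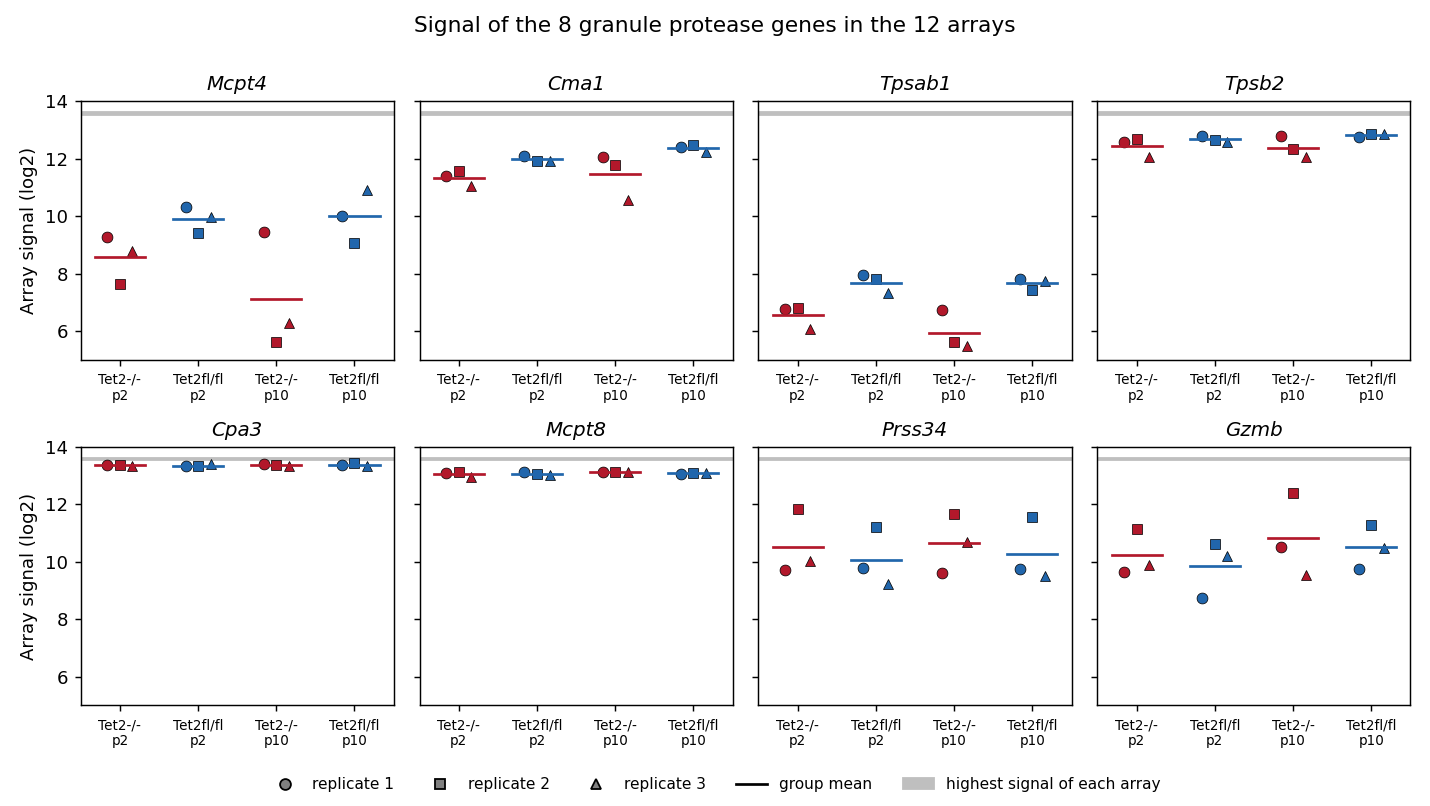
Array signal (log2) of each of the 8 protease genes in every array, by group. Symbols are the replicate numbers, lines are group means, and the grey band spans the highest signal of each array (13.52 to 13.61). Mcpt4, Cma1 and Tpsab1 have lower means in both Tet2-/- groups, Cpa3 and Mcpt8 lie flat just under the band, and replicate 2 is the highest array of every group for Prss34 and Gzmb.

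The members fell into 3 patterns of signal. Mcpt4, Cma1, Tpsab1 and, by less, Tpsb2 had lower means in Tet2-/- cells, and of these Tpsab1 passed for the average over both passages, with Mcpt4 and Cma1 passing once the replicate block was used. Cpa3 and Mcpt8 were near the highest signal of the arrays and differed little between any arrays. Prss34 and Gzmb passed for replicate number and not for genotype.

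Tpsab1, a tryptase gene, had a signal of 6.76, 6.81 and 6.07 in Tet2-/- p2 cells, against 7.96, 7.80 and 7.31 in Tet2fl/fl p2 cells (replicates 1, 2 and 3). At passage 10 it had 6.75, 5.63 and 5.48 in Tet2-/- cells, against 7.83, 7.44 and 7.74 in Tet2fl/fl cells. All 6 Tet2-/- arrays lay below all 6 Tet2fl/fl arrays. The difference was -1.14 ± 0.32 at passage 2 (adjusted p = 0.239, with the replicate block 0.0752) and -1.72 ± 0.32 at passage 10 (adjusted p = 0.0588, with the block 0.012). For the average of both passages Tpsab1 fell by 1.43 ± 0.22 on the log2 scale (0.372 times the level in Tet2fl/fl cells, adjusted p = 0.0124, with the block 0.00271). It passed for this average without any 1 array (adjusted p 0.00158 to 0.0397), but not when replicate 2 (0.18) or replicate 3 (0.139) was left out of all 4 groups.

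Within replicate numbers, Tpsab1 differed by -1.20, -0.99 and -1.23 at passage 2 and by -1.07, -1.81 and -2.26 at passage 10, in the same direction in all 6 pairs. Its group means ran, from high to low, 7.69 in Tet2fl/fl p2, 7.67 in Tet2fl/fl p10, 6.55 in Tet2-/- p2 and 5.95 in Tet2-/- p10 cells. Neighbours of the same genotype in that order did not pass: passage 10 minus passage 2 was -0.59 in Tet2-/- cells (adjusted p = 0.302) and -0.02 in Tet2fl/fl cells (adjusted p = 0.989).

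Mcpt4, a chymase gene of connective tissue mast cells, varied most. Its signal was 9.27, 7.65 and 8.80 in Tet2-/- p2 cells, against 10.33, 9.40 and 9.97 in Tet2fl/fl p2 cells. The passage 10 signals were 9.46, 5.64 and 6.27 in Tet2-/- cells, against 10.01, 9.07 and 10.90 in Tet2fl/fl cells. The groups did not overlap at passage 2, while at passage 10 Tet2-/- replicate 1 lay above Tet2fl/fl replicate 2.

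Mcpt4 differed by -1.33 ± 0.84 at passage 2 (adjusted p = 0.642) and by -2.87 ± 0.84 at passage 10 (adjusted p = 0.239, with the block 0.0509). The average difference was -2.10 ± 0.59 (0.234 times, adjusted p = 0.1, with the block 0.0216). All 6 pairs of the same replicate number were negative, but unevenly at passage 10: -0.55 for replicate 1, -3.43 for replicate 2 and -4.63 for replicate 3. Without Tet2-/- p10 replicate 1 the passage 10 difference was -4.04 (adjusted p = 0.0142), the only alternative fit in which it passed. Over all fits that left out 1 array, it ran from -4.04 to -2.13, with an adjusted p of up to 0.544 in limma's test. The SD at passage 10 was 2.05 in Tet2-/- cells and 0.915 in Tet2fl/fl cells.

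Cma1, the other chymase gene among the members, had 11.41, 11.56 and 11.04 in Tet2-/- p2 cells, against 12.10, 11.90 and 11.93 in Tet2fl/fl p2 cells. At passage 10 it had 12.04, 11.78 and 10.56 in Tet2-/- cells, against 12.39, 12.47 and 12.23 in Tet2fl/fl cells. The groups did not overlap within either passage, and all 6 pairs were negative. The differences were -0.64 ± 0.30 (adjusted p = 0.514) at passage 2 and -0.91 ± 0.30 (adjusted p = 0.286, with the block 0.0915) at passage 10. Their average was -0.77 ± 0.21 (0.585 times, adjusted p = 0.0882, with the block 0.0267). Without Tet2-/- p10 replicate 3, the lowest array, the passage 10 difference was -0.46 and the average -0.55 (adjusted p = 0.0473 for the average).

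Tpsb2, the second tryptase gene, had 12.57, 12.69 and 12.05 in Tet2-/- p2 cells, against 12.79, 12.64 and 12.57 in Tet2fl/fl p2 cells. The passage 10 signals were 12.77, 12.33 and 12.04 in Tet2-/- cells, against 12.76, 12.86 and 12.85 in Tet2fl/fl cells. The groups overlapped at both passages. The difference was -0.23 ± 0.19 (95% interval -0.64 to 0.18) at passage 2 and -0.44 ± 0.19 (-0.85 to -0.03) at passage 10, and neither passed (adjusted p = 0.729 and 0.424). Without Tet2-/- p2 replicate 3 the passage 2 difference was -0.04. The average, -0.34 ± 0.13, did not pass either (adjusted p = 0.236, with the block 0.104). Tpsb2 lay within 0.72 to 1.55 log2 units of the highest signal of its array. Tpsab1 and Tpsb2 are close copies, and how far the probes of one also bind RNA of the other was not tested.

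**Figure D2:**
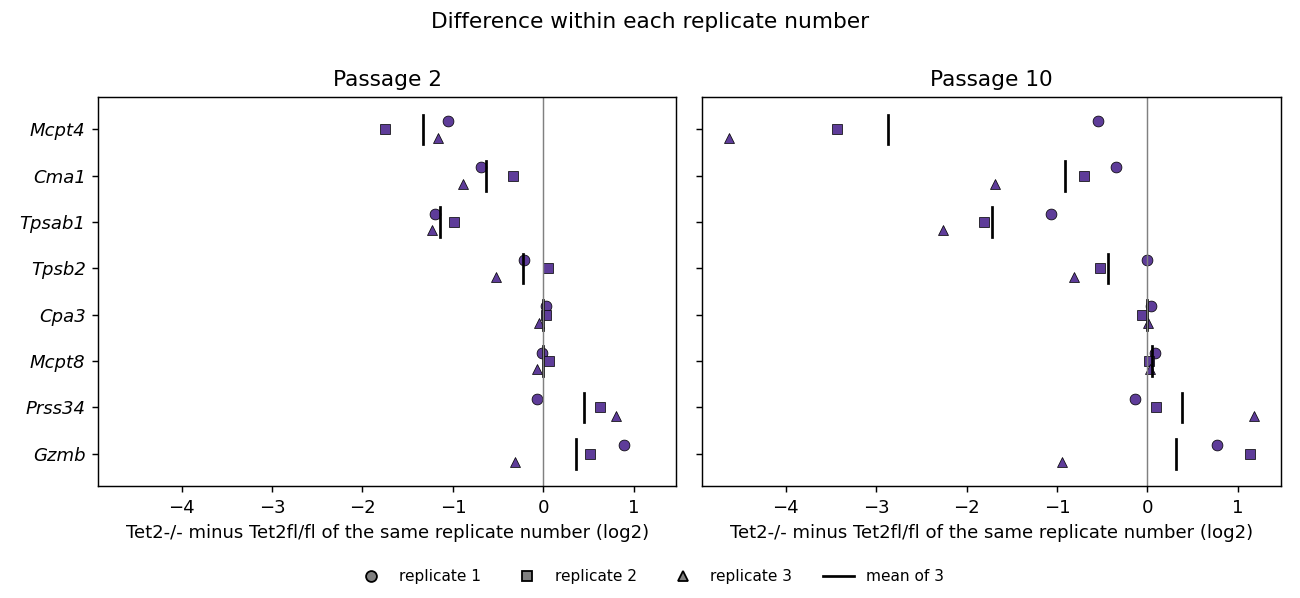
Difference in array signal (log2) between the Tet2-/- and the Tet2fl/fl array of the same replicate number, for each gene, at passage 2 (left) and passage 10 (right). Symbols are replicate numbers and black lines the mean of 3 pairs. All 6 pairs are negative for Mcpt4, Cma1 and Tpsab1, and the passage 10 pairs of Mcpt4 spread from -4.63 to -0.55.

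Over the 8 members, none passed at passage 2 in limma's test, with or without the block. In the fit without the block 1, Tpsab1, had an unadjusted p under 0.05 (5.65% of genes as lower, 4.29% as higher). Among all genes, 0.00593% passed as lower and 0% as higher without the block, and 0.261% and 0.148% with it. Groups did not overlap, with Tet2-/- lower, for 3 members (Mcpt4, Cma1, Tpsab1), against 8.17% of all genes, and with Tet2-/- higher for none, against 7.12%. In the passage 10 comparison no member passed in the fit without the block, while 0.101% of all genes passed as lower and 0.125% as higher. In the fit without the block an unadjusted p under 0.05 was found for 4 members, all lower, against 6.01% of genes as lower and 4.59% as higher. With the block 1 member passed as lower (Tpsab1), against 0.700% of genes as lower and 0.611% as higher. Groups did not overlap with Tet2-/- lower for 2 members (9.80% of genes) and with Tet2-/- higher for 1 member (6.55%).

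For the average of both genotype differences, 1 of 8 members passed as lower and none as higher, where 1.06% of genes passed as lower and 0.658% as higher (179 and 111 genes). With equal array medians 289 of 377 calls were lower, and leaving out 1 array gave 98 to 496 calls over all genes. With the block 3 passed as lower (Tpsab1, Mcpt4, Cma1), against 3.25% of genes as lower and 2.16% as higher. For the same average, in the fit without the block, 4 members had an unadjusted p under 0.05, all lower, against 9.33% of genes as lower and 6.80% as higher. All 6 Tet2-/- arrays lay below all 6 Tet2fl/fl arrays for 1 member, Tpsab1, against 1.13% of genes. Members and the average contrast were chosen with earlier results of these data known. The shares of all genes are thus given for description and do not test the members as a set. The median difference of the 8 members was -0.12 at passage 2, -0.22 at passage 10 and -0.17 for the average, and that of all genes was 0.00, -0.01 and 0.00. These RNA measurements come from bulk samples, in which fewer cells of a type and less RNA per cell cannot be told apart.

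**Figure D3:**
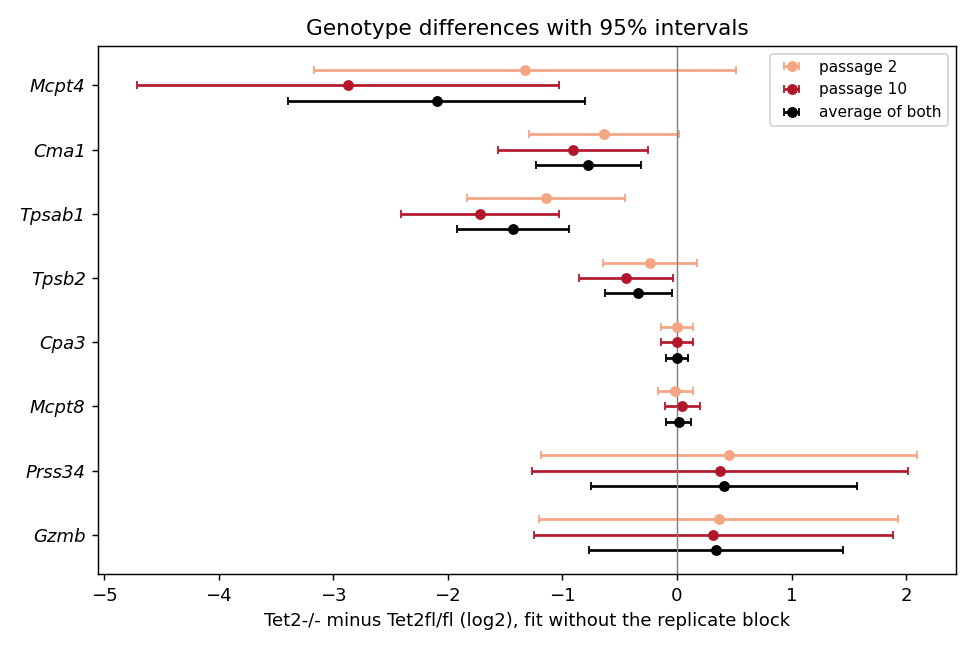
Difference in array signal, Tet2-/- minus Tet2fl/fl (log2), for each gene at passage 2, at passage 10 and averaged over both, with 95% intervals from the fit without the replicate block. The average for Tpsab1 (-1.43) passed over all genes, the intervals of Mcpt4 are wide, those of Cpa3 and Mcpt8 are narrow, and those of Prss34 and Gzmb include 0.

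Cpa3, the mast cell carboxypeptidase gene, had 13.36, 13.35 and 13.33 in Tet2-/- p2 cells, against 13.33, 13.32 and 13.38 in Tet2fl/fl p2 cells. At passage 10 it had 13.40, 13.36 and 13.34 in Tet2-/- cells, against 13.35, 13.42 and 13.33 in Tet2fl/fl cells. All 12 values lay within 0.10 log2 units of each other and 0.17 to 0.25 below the highest signal of their own array. The average genotype difference was 0.00 ± 0.05 (95% interval -0.10 to 0.10, adjusted p = 0.999).

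Mcpt8, the basophil protease gene, had 13.07, 13.11 and 12.94 in Tet2-/- p2 cells, against 13.10, 13.05 and 13.01 in Tet2fl/fl p2 cells. The passage 10 signals were 13.12, 13.11 and 13.10 in Tet2-/- cells, against 13.04, 13.09 and 13.07 in Tet2fl/fl cells. The Tet2-/- arrays were the higher ones at passage 10, by 0.05 ± 0.07 (adjusted p = 0.897), a difference smaller than its error. The values lay 0.42 to 0.58 below the highest signal of each array, and 6 of the 12 lay within 0.5 of it.

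Genes with signals near the highest on the array spanned narrow ranges. The highest signal of an array was 13.52 to 13.61. In all 12 arrays 8 genes were within 0.5 of it, Cpa3 among them, and the widest range of these 8 over the 12 arrays was 0.15. Among the 19 genes with a mean of 13 or more, the median range over the arrays was 0.154 and none had a range above 1. Among the 1708 genes with a mean of 10 to 12, the median range was 0.436, and 7.03% had a range above 1. The small differences of Cpa3 and Mcpt8 are thus differences of signal near the array ceiling, and whether their RNA differed by more than their signal was not tested. In the band from 12 to 13, which holds Tpsb2, 3 of 146 genes (2.05%) had a range above 1 and 1 passed for the average genotype difference.

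**Figure D4:**
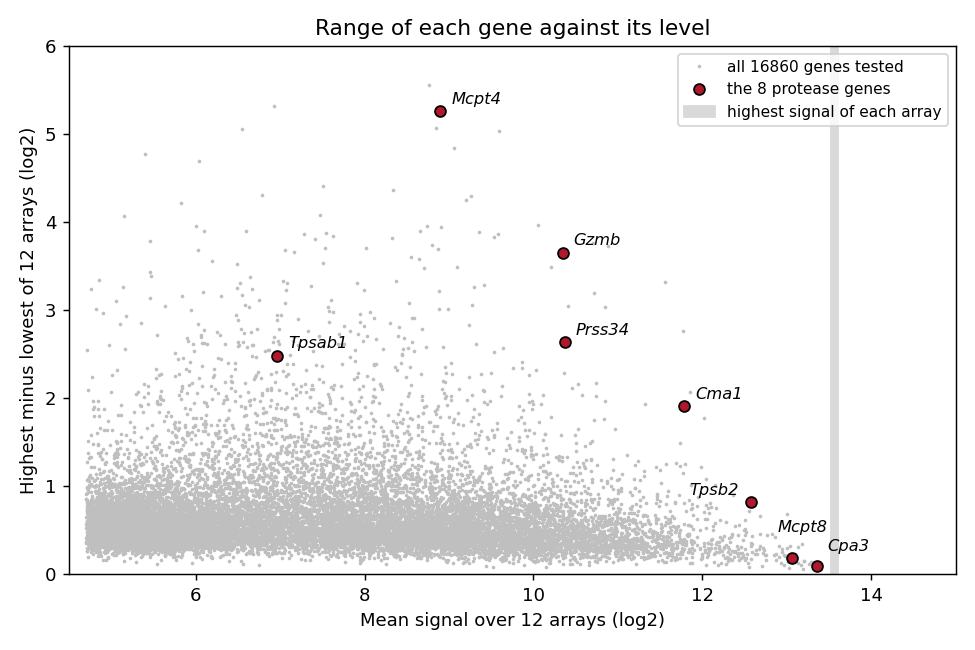
Range of each gene over the 12 arrays (highest minus lowest, log2) against its mean signal (log2), for all 16860 genes tested (grey) and the 8 protease genes (red). The grey band is the highest signal of each array. Ranges narrow towards the band, where Cpa3 and Mcpt8 lie, while Mcpt4 has a range of 5.26 and Gzmb of 3.65.

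Prss34, a basophil tryptase-like protease gene, had 9.72, 11.84 and 10.01 in Tet2-/- p2 cells, against 9.79, 11.22 and 9.21 in Tet2fl/fl p2 cells. At passage 10 it had 9.60, 11.65 and 10.67 in Tet2-/- cells, against 9.73, 11.55 and 9.50 in Tet2fl/fl cells. Replicate 2 was the highest array in all 4 groups, with a mean of 11.57 over them, while replicates 1 and 3 had means of 9.71 and 9.85. The effect of replicate number, tested after the values were seen with limma's F test of the block, passed over all genes (adjusted p = 0.00383). The average genotype difference was 0.41 ± 0.53 (95% interval -0.75 to 1.57, adjusted p = 0.773, with the block ± 0.18 and 0.223).

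Gzmb, the granzyme B gene, had 9.63, 11.14 and 9.89 in Tet2-/- p2 cells, against 8.74, 10.63 and 10.20 in Tet2fl/fl p2 cells. The passage 10 signals were 10.52, 12.39 and 9.53 in Tet2-/- cells, against 9.75, 11.26 and 10.47 in Tet2fl/fl cells. Replicate 2 was again the highest in all 4 groups, with a mean of 11.36 over them, while replicates 1 and 3 had 9.66 and 10.02 (adjusted p = 0.043 for replicate number). The average genotype difference was 0.34 ± 0.51 (95% interval -0.77 to 1.45, adjusted p = 0.813, with the block 0.557). The pairs did not share a direction: 0.89, 0.51 and -0.31 at passage 2, and 0.77, 1.13 and -0.94 at passage 10.

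Prss34 and Gzmb were the only 2 of the 8 members that passed for replicate number, where 614 of all genes (3.64%) did. For the other members the adjusted p was 0.159 to 0.98. Among these other members, replicate 2 was the lowest array of all 4 groups for Mcpt4. Replicate 3 was the lowest of 3 groups each for Cma1, Tpsab1, Tpsb2, Cpa3 and Mcpt8.

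Granzyme B is also a product of natural killer (NK) cells and cytotoxic T cells, so their markers were examined. Of 14 such markers, 6 lay below the filter on low values, namely Gzma, Klrb1c, Klrd1, Klrk1, Ncr1 and Cd3g. These include receptors that define NK cells and a T cell receptor subunit. Cd3e, also a T cell receptor subunit, lay above the filter, as did Prf1, Nkg7, Gzmk, Cd8a, Eomes, Tbx21 and Ifng. The 8 markers above it had mean signals of 6.13 to 6.30 in Tet2-/- p10 arrays and 6.23 to 6.54 in Tet2fl/fl p10 arrays, and of 6.14 to 6.24 in Tet2-/- p2 arrays and 6.09 to 6.34 in Tet2fl/fl p2 arrays. None of the 8 passed for genotype or for replicate number in limma's tests. By replicate number over the 4 groups their mean was 6.21 to 6.54 in replicate 1, 6.24 to 6.31 in replicate 2, where Gzmb was highest, and 6.09 to 6.23 in replicate 3. Nkg7, a granule protein gene of these lymphocytes, had a high signal, with means of 11.67 in Tet2-/- p2, 11.79 in Tet2fl/fl p2, 11.48 in Tet2-/- p10 and 11.55 in Tet2fl/fl p10 cells. The mean over the 8 markers includes Nkg7, so the others averaged below it. Prf1, the perforin gene, averaged 6.81 and 6.98 in Tet2-/- and Tet2fl/fl p10 cells. It had 8.32 in Tet2fl/fl p10 replicate 1, where Gzmb was the lowest of its group. In Tet2-/- p10 replicate 3 both Prf1 (6.27) and Gzmb (9.53) were the lowest of their group. Whether the Gzmb signal followed these markers was not tested.

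Between passages no member passed. For passage 10 minus passage 2 none of the 8 passed in Tet2-/- cells, with or without the block, where 1.25% of genes passed as higher and 1.73% as lower (3.26% and 4.68% with the block). These shares rest on single arrays: 0 genes passed without Tet2-/- p2 replicate 1 or 3 or Tet2-/- p10 replicate 2 or 3, and 2 when replicate 1 of Tet2-/- p10 was left out. Of the calls 292 were lower and 211 higher, while with equal array medians 130 of 327 and with quantile normalization 268 of 669 were lower. None passed in Tet2fl/fl cells, where 0% passed without the block and 0.00593% as higher and 0.0356% as lower with it. No member had an unadjusted p under 0.05 in either comparison in limma's test without the block, where 10.8% of genes as higher and 10.8% as lower did in Tet2-/- cells, and 5.72% and 4.5% in Tet2fl/fl cells. In Tet2fl/fl cells the passages did not overlap for 1 member, Cma1, which was higher at passage 10 by 0.39 (adjusted p = 0.658), against 7.99% of genes. The largest values were -1.45 ± 0.84 for Mcpt4 in Tet2-/- cells (adjusted p = 0.341), whose pairs were 0.19, -2.02 and -2.53, and 0.64 ± 0.72 for Gzmb in Tet2fl/fl cells (adjusted p = 0.776). Leaving out 1 array gave -2.62 to -0.71 for Mcpt4 (replicate 1 and replicate 2 of Tet2-/- p10 left out) and 0.08 to 1.03 for Gzmb (replicate 1 and replicate 2 of Tet2fl/fl p2 left out). The genotype difference itself did not pass as changing between passages for any member, and none had an unadjusted p under 0.05 there in the fit without the block. Among all genes 0% passed without the block and 0.00593% as lower with it. Mcpt4 had a change of -1.54 ± 1.19, Tpsab1 of -0.57 ± 0.45 and the others of -0.27 to 0.06, with an adjusted p of 0.999 for each. Among the fits that left out 1 array, these values ran from -2.71 to -0.80 for Mcpt4 and from -0.97 to -0.34 for Tpsab1. Both were most negative when replicate 1 of Tet2-/- p10 was left out, and nearest to 0 when replicate 2 (Mcpt4) or replicate 3 (Tpsab1) of that group was.

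The genes around the members were described next. In the chromosome 14 cluster, 10 of 11 listed neighbours had a named row and 3 lay above the filter, Ctsg, Cma2 and Mcpt2. Mcpt1, Mcpt9 and the granzyme genes Gzmc, Gzmd, Gzmf, Gzmg and Gzmn lay below it. Mcpt2, a chymase gene of mucosal mast cells, had 6.24, 5.11 and 5.65 in Tet2-/- p2 cells, against 6.91, 6.37 and 6.93 in Tet2fl/fl p2 cells. At passage 10 it had 6.36, 4.20 and 4.75 in Tet2-/- cells, against 6.58, 5.94 and 8.09 in Tet2fl/fl cells. Its average difference was -1.42 (adjusted p = 0.11, with the block 0.0327). Ctsg, the cathepsin G gene of neutrophil granules, had group means of 13.06 and 13.12 at passage 2 and 13.13 and 13.21 at passage 10 (Tet2-/- before Tet2fl/fl), near the ceiling, and an average difference of -0.07 (adjusted p = 0.566).

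In the chromosome 17 cluster, 7 of 8 listed neighbours lay above the filter. Tpsg1, the gene of a membrane-bound tryptase, had 8.75, 9.57 and 8.49 in Tet2-/- p2 cells, against 9.87, 10.07 and 9.61 in Tet2fl/fl p2 cells. The passage 10 signals were 9.26, 8.87 and 8.21 in Tet2-/- cells, against 9.42, 10.47 and 10.01 in Tet2fl/fl cells. The groups did not overlap within either passage, and the average difference was -1.05 (adjusted p = 0.0536, with the block 0.0143). Of the other 6, none passed for genotype, and their average differences were -0.05 to 0.32. Lower signal in Tet2-/- cells was thus measured for Tpsab1, which passed, and for its neighbour Tpsg1, which passed with the block, while Prss34 in the same cluster had a positive difference that did not pass.

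By pattern over the 12 arrays, each gene centred on its own mean, the 3 closest genes were taken for each member with a range above 2 log2 units. For Mcpt4 these were Mcpt2 (root mean square difference 0.634 log2 units), Calcrl (0.735) and Car8 (0.811). For Tpsab1 they were Pxdc1 (0.358), Edil3 (0.362) and the creatine transporter gene Slc6a8 (0.365). For Prss34 they were Prss28 (0.45), from the list of its chromosome 17 neighbours, St6gal1 (0.451) and Galnt12 (0.478). For Gzmb they were Cyp4a12a (0.419), Frmd5 (0.475) and Cyp4a12b (0.485). These genes were chosen for their likeness on the same arrays, so no test of them is given here. Mcpt2 and Prss28 were tested above as listed neighbours of the members. Mcpt2 and Mcpt4, and Prss28 and Prss34, are related in sequence, and whether their probes share RNA was not tested.

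Genes that pack and activate granule proteases followed. Of 25 measured members of that list, none passed at passage 2 or at passage 10, whichever fit was used, and for the average 1 fell, the xylosyltransferase gene Xylt1, which starts the sugar chains of serglycin (-0.34, adjusted p = 0.0228), against 1.06% of all genes. With the block 3 were lower, against 3.25% of all genes, Xylt1, Extl3 (-0.50, adjusted p = 0.141, with the block 0.0216) and the heparin-sulphating enzyme gene Ndst2 (-0.32, 0.214 and 0.0378). The median of the list was -0.02 and that of all genes 0.00. Srgn, the serglycin core gene, had group means of 12.72 and 12.69 at passage 2 and 12.72 and 12.71 at passage 10 (Tet2-/- before Tet2fl/fl). Ctsc, the gene of cathepsin C, which activates chymases and granzymes, had 11.61 and 11.46, and 11.72 and 11.54, in the same order. Both were chosen after their values were seen, and neither passed for genotype. In Tet2-/- cells Ctsd, a lysosomal protease gene, was higher at passage 10 than at passage 2 (0.32, adjusted p = 0.0457; 1.25% of genes passed as higher), a call lost without Tet2-/- p2 replicate 1 or 3 or without Tet2-/- p10 replicate 2 or 3, when 0 genes passed. With the block 5 genes of the list were higher in that comparison, against 3.26% of all genes, among them Rab27b (0.51, 0.0816 and 0.0121) and the monoamine transporter gene Slc18a2 (0.76, 0.0902 and 0.00881).

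Among 13 measured protease inhibitor genes, Spint1, which encodes an inhibitor of trypsin-like proteases, fell for the average by 0.79 on the log2 scale (adjusted p = 0.0144; 1.06% of all genes passed as lower). Its values were 7.95, 7.64 and 7.91 in Tet2-/- p2 cells, against 8.42, 8.38 and 8.45 in Tet2fl/fl p2 cells. At passage 10 they were 7.58, 7.79 and 7.62 in Tet2-/- cells, against 8.13, 8.96 and 8.90 in Tet2fl/fl cells. All 6 Tet2-/- arrays lay below all 6 Tet2fl/fl arrays, against 1.13% of all genes. With the block Spint1 passed at passage 10 (means 7.66 and 8.66, adjusted p = 0.058 and 0.034), against 0.700% of all genes as lower. Spint2 was higher for the average with the block (0.28, adjusted p = 0.0724 and 0.0446), against 2.16% of all genes. The list's median was -0.06.

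Of 20 transcription factor genes of mast cells and basophils, none passed for genotype in limma's test unless the block was used. For the average, an unadjusted p under 0.05 was found for 4 with a positive and 3 with a negative difference, against 6.80% and 9.33% of all genes. The block gave 3 as lower, against 3.25% of all genes, Id2 (-0.31, adjusted p = 0.0536 and 0.029), Tfe3 (-0.28, 0.0689 and 0.0205) and Gata2 (-0.28, 0.145 and 0.0461). With it 2 were higher, against 2.16% of all genes, Nfil3 (0.47, 0.0781 and 0.031), and Ikzf2 (0.22, 0.0965 and 0.0386).

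Surface and mediator genes of mast cells and basophils were described last, and whether their share of calls differed from that of the proteases was not tested. Of 27 listed genes 26 had a named row, and all 26 were measured. Of these, 5 fell for the average without the block and 7 with it, and none rose. Among all genes 1.06% were lower and 0.658% higher without the block, and 3.25% and 2.16% with it. The 5 were Slc6a4, which encodes the transporter of serotonin (-2.73, adjusted p = 0.000824), the integrin gene Itga2 (-2.24, 0.0031), Grap2 (-1.50, 0.00785), the prostaglandin synthase gene Hpgds (-0.91, 0.0102) and the SCF receptor gene Kit (-0.82, 0.022). The median of the list was -0.21, against 0.00 for all genes. Fcer1a, the IgE receptor subunit gene, had 8.37, 7.69 and 7.36 in Tet2-/- p10 cells, against 9.26, 10.75 and 10.84 in Tet2fl/fl p10 cells. Fcer1a passed at passage 10 only with the block (-2.48, adjusted p = 0.0753 and 0.034).

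Markers of other cell types were set beside the proteases. Of 7 measured eosinophil markers, none passed at either passage or for the average without the block. With it 2 were lower for the average, against 3.25% of all genes, Epx (-2.22, adjusted p = 0.0501 and 0.0169) and Il5ra (-0.97, 0.0822 and 0.0412). The mean signal of the 7 was 7.44 to 7.65 in Tet2-/- p2 arrays and 8.75 to 9.05 in Tet2fl/fl p2 arrays, and 7.03 to 8.55 in Tet2-/- p10 arrays and 7.02 to 9.03 in Tet2fl/fl p10 arrays. The eosinophil mean was thus lower at passage 2, like Mcpt4, Cma1 and Tpsab1, and its part in their signal was not tested. The sort asked for cells without CD11b, which mature eosinophils carry, and the purity of the sorted cells was not examined here. In these sorted cells Epx had 7.66, 7.82 and 8.33 in Tet2-/- p2 arrays, against 10.67, 11.04 and 10.98 in Tet2fl/fl p2 arrays. Which cells gave this signal was not tested. Of 14 neutrophil and granulocyte progenitor markers none passed for genotype, and their mean signal overlapped between the genotypes at both passages (8.97 to 9.69 in Tet2-/- and 8.82 to 9.98 in Tet2fl/fl arrays at passage 2). The mean signal of 8 monocyte and macrophage markers did not overlap at passage 2 (8.32 to 8.51 in Tet2-/- and 8.15 to 8.18 in Tet2fl/fl arrays), and overlapped at passage 10 (8.19 to 8.44 and 7.98 to 8.63). Its part in the protease signals was not tested. Of these 8 and of 6 erythroid and megakaryocyte markers none passed for genotype without the block. With it 1 of each was higher for the average, against 2.16% of all genes, Adgre1 (0.26, adjusted p = 0.208 and 0.0419) and Itga2b (0.34, 0.213 and 0.0416).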

How the data were processed

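Total RNA (100 ng per sample) from sorted immature myeloid cells was hybridised to 12 arrays (GeneChip Mouse Gene ST 2.0). The values deposited by the authors are on the log2 scale, and the submitters' processing notes name RMA and Affymetrix Power Tools. RMA as generally defined corrects background, normalises across arrays and summarises probes. Versions: not given in the sources used here. No further scaling was applied, and raw intensities were not used here.

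Of 41345 rows, 28941 reached the 30th percentile of row means (log2 4.70). Symbols came from the platform annotation, updated by gene ID through RefSeq (23328 of 23521 rows with 1 symbol matched). The row with the highest mean was kept for each gene, which left 16860 genes. Group means were estimated in 1 limma model of the 12 arrays (limma 3.58.1, R 4.3.3), with 8 residual and 3.33 prior degrees of freedom, or 6 and 3.93 when replicate number was a block. Tests are two-sided, adjusted by Benjamini and Hochberg within each contrast, with a threshold of 0.05. The number of arrays limits the precision.

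Arrays with the same number correlated at 0.201 to 0.517 in their deviations from group means (18 pairs), those with different numbers at -0.369 to 0.0532 (36 pairs). The pairing comes from the data, as the labels give only the number.

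All 8 members were named. From other lists up to 6 genes that passed were named, or else those with the smallest p, and Srgn, Ctsc, Prf1, Fcer1a and the genes that passed with the block alone were chosen after their values were seen. For members with a range above 2 log2 units, the 3 genes with the smallest root mean square difference of centred values were named. Members, lists and the average contrast were chosen with earlier results of these data known. The fit was tested on simulated data. The alternatives were other scalings, filters, rows, weights and blocks, and leaving out arrays.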

Additional observations from a re-analysis of the deposited data

How the results depend on the processing

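At passage 2 no member passed under any alternative, and none passed for either passage comparison or for the change of the genotype difference. At passage 10 the count of members that passed was 0 in the fit without the block and 1 (Tpsab1) with equal array medians (adjusted p = 0.0428), the filter at the 50th percentile (0.0488), array weights (0.0335), the replicate block (0.012) and the random replicate block (0.0257). Leaving out arrays gave counts of 0 to 2 there, with the 2 (Tpsab1 and Mcpt4) without Tet2-/- p10 replicate 1. For the average of both genotype differences the count was 1, and 3 with the replicate block as with the random replicate block (Tpsab1, Mcpt4 and Cma1). Leaving out arrays gave 0 to 3: 3 when Tet2-/- p10 replicate 1 was left out, 2 without replicate 1 of all groups or without replicate 3 of Tet2-/- p10 alone, and 0 without replicate 2 or replicate 3 of all groups. The cause of these changes was not tested, other than that fewer arrays enter when some are left out. The genotype differences of Mcpt4, Cma1, Tpsab1 and Tpsb2 kept their negative sign at both passages and for the average under all alternatives run, while those of Prss34 and Gzmb changed sign at each passage when single arrays were left out. Of the members' values, 18 lay within 0.5 log2 units of the highest signal of their array and 32 within 1. The replicate block changed no other call of a member. Over all genes the number that passed ranged across the alternatives from 0 to 69 at passage 2, 3 to 221 at passage 10, 14 to 912 for the average and 0 to 1728 between passages in Tet2-/- cells, so the shares of all genes given beside the members' counts hold for the fit named there.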
